A study of Homo sapiens with 4 samples.

Results

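The genes of the kinesins and of cytoplasmic dynein were examined in polysome profiling of MDA-MB-231 cells. They were taken by symbol among the genes that the table classes as mRNA: names that start with KIF and a digit or with KIFC, and names that start with DYNC, DYNLL, DYNLT or DYNLRB, without hyphenated names. This gave 57 genes of 19316 mRNA genes. Of these, 37 had a mean of at least 1 FPKM (sequenced fragments per kilobase of transcript, set relative to library size) and are compared below, and 10383 mRNA genes in all passed this minimum. The 37 comprised 26 long motor chains (25 kinesins and the heavy chain DYNC1H1), 6 dynein intermediate and light intermediate chains, and 5 short dynein light chains.

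MDA-MB-231 is a human triple-negative breast cancer line. Its endogenous METTL3, the catalytic subunit of the nuclear m6A methyltransferase, had been depleted, and the cells were reconstituted by lentivirus with METTL3 WT or with METTL3 K177Q, in which glutamine replaces lysine to mimic acetylation. All cells thus carried the depletion and lentiviral expression, and all had been given cycloheximide, which freezes ribosomes on mRNA, at 100 µg/mL during 5 min before lysis, and the gradient was of 10 to 50% sucrose. Fractions were pooled into a sub-polysome fraction (free subunits and single ribosomes) and a polysome fraction (mRNAs carrying several ribosomes), and poly(A) RNA was sequenced. Here 4 libraries, all of replicate 2, were analysed: the METTL3 WT and the METTL3 K177Q cells, each with 1 sub-polysome and 1 polysome library. With the 1 library used per condition there is no replicate error for any value, no test was made and p-values are absent. Each difference compares these libraries and not the genotypes in general.

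FPKM summed to 899550 and 818984 in the WT sub-polysome and polysome libraries and to 1037590 and 767949 in those of K177Q cells, with an approximate depth of 24200000 to 26400000 fragments. METTL3 itself, with endogenous and vector-derived mRNA not told apart, stood at 9.39 FPKM in WT sub-polysomes, 38.7 in WT polysomes, 5.07 in K177Q sub-polysomes and 29.5 in K177Q polysomes. As to identity, VIM (677 to 1543 FPKM), CD44 (110 to 151) and AXL (158 to 235) were high, and ESR1, PGR and CDH1 were each under 1 FPKM in every library. ERBB2 (12.2 to 28.3) and EPCAM (6.20 to 9.91) were not absent. Because the totals differ, rescaling each library to the same total (TPM) raised the median log2 ratio of polysome to sub-polysome over all mRNA genes from 0.18 to 0.32 in WT and from 0.21 to 0.64 in K177Q cells, and a direction that this or median-of-ratios size factors turned is named below.

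Kinesins and dynein walk along microtubules by hydrolysing ATP. Most kinesins move toward the plus end and carry vesicles or organelles, or build and divide the mitotic spindle, while cytoplasmic dynein moves toward the minus end and serves both trafficking and mitosis. The motor domain sits in a long polypeptide, whereas the small dynein light chains are dimeric adaptor proteins, of which LC8 (DYNLL1 and DYNLL2) also binds many proteins outside dynein.

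The LC8 pair shows how near in sequence and how far apart in level the short chains can be. Both mRNAs code for 89 residues, and the coding sequences, each with its stop codon, hold 270 bases. Of these, 215 are the same in both genes (79.6%) and 55 differ, and the longest run without a difference is 25 bases. DYNLL1 lies on the plus strand of hg38 at chr12:120469850-120498493, and DYNLL2 on the plus strand at chr17:58083419-58095542. The sequences are those of the GENCODE 44 canonical transcripts, and capitals mark the bases that differ:
DYNLL1: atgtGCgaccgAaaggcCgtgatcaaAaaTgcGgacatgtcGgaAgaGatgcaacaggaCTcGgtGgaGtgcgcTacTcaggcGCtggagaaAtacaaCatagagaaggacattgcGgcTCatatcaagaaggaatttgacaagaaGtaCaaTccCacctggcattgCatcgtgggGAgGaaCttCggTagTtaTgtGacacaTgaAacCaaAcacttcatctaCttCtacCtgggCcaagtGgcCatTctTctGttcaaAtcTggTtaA
DYNLL2: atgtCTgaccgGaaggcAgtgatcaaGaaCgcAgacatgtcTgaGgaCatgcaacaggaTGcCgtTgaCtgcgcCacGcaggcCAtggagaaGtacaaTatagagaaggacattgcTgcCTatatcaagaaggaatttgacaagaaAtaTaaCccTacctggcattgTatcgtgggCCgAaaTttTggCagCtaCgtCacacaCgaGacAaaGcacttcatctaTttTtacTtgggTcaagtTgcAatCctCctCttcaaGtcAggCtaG

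Around that reading frame the transcripts were unlike. The annotated DYNLL1 mRNA has 110 bases before the start codon and 283 after the stop codon, and that of DYNLL2 has 274 and 6263. DYNLL1 was measured at 1086 FPKM in WT sub-polysomes, 583 in WT polysomes, 1064 in K177Q sub-polysomes and 516 in K177Q polysomes. DYNLL2 was measured at 14.3, 11.3, 14.7 and 11.0 FPKM in the same order. DYNLL1 was thus the highest of all 57 genes in every library. Its level was lower in polysomes than in sub-polysomes by 1.86-fold in WT and 2.06-fold in K177Q cells, against 1.27-fold and 1.34-fold for DYNLL2. The annotation names 7 pseudogenes after DYNLL1, and reads shared with them cannot be told apart here.

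The remaining light chains are DYNLRB1, of the roadblock family, and DYNLT1 and DYNLT3, of the Tctex family. DYNLRB1 stood at 525 FPKM in WT sub-polysomes and 331 in WT polysomes, and at 684 and 332 in K177Q cells. DYNLT1 had 159 and 188 FPKM in WT sub-polysomes and polysomes, and 180 and 172 in K177Q cells. DYNLT3 had 31.0 and 17.3 FPKM, and 27.0 and 14.4, in the same order. DYNLT1 was the sole light chain with a higher value in polysomes than in sub-polysomes, in WT cells alone. The other 4 were lower in polysomes in both genotypes, but with TPM DYNLL2 and DYNLT1 were higher in polysomes in K177Q cells (log2 0.01 and 0.37). DYNLRB1 shares 583 exonic bases with an unnamed annotated gene on the same strand, so its value may include reads of that gene. The sixth light chain, DYNLRB2, was listed at 0 in 3 libraries and at 0.103 FPKM in K177Q sub-polysomes. TCTEX1D2, the older symbol of a further Tctex light chain, falls outside the naming rule and had 19.4 to 24.0 FPKM.

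Light chains dominated the summed level of the motor genes. They took 75.2% of the 2414 FPKM summed over all 57 genes in WT sub-polysomes and 57.7% of the 1963 FPKM in WT polysomes. In K177Q cells the shares were 78.0% and 57.1%. The 15 spindle kinesins stood the other way, with 5.78% of the sum in WT sub-polysomes against 15.2% in WT polysomes, and 4.97% against 15.9% in K177Q cells. These shares do not depend on how the libraries are scaled. A sum weighs abundant genes most. Of the 13 spindle kinesins that reached the minimum, 8 were higher and 5 lower in WT polysomes, and 13 were higher in K177Q polysomes. Their median log2 ratio of polysome to sub-polysome was 0.19 in WT and 0.41 in K177Q cells. All mRNA genes had 0.18 and 0.21. With size factors, 7 of the 13 were higher in polysomes in WT and 10 in K177Q cells. The plot of FPKM by role shows the fractions gene by gene.

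**Figure D1:**
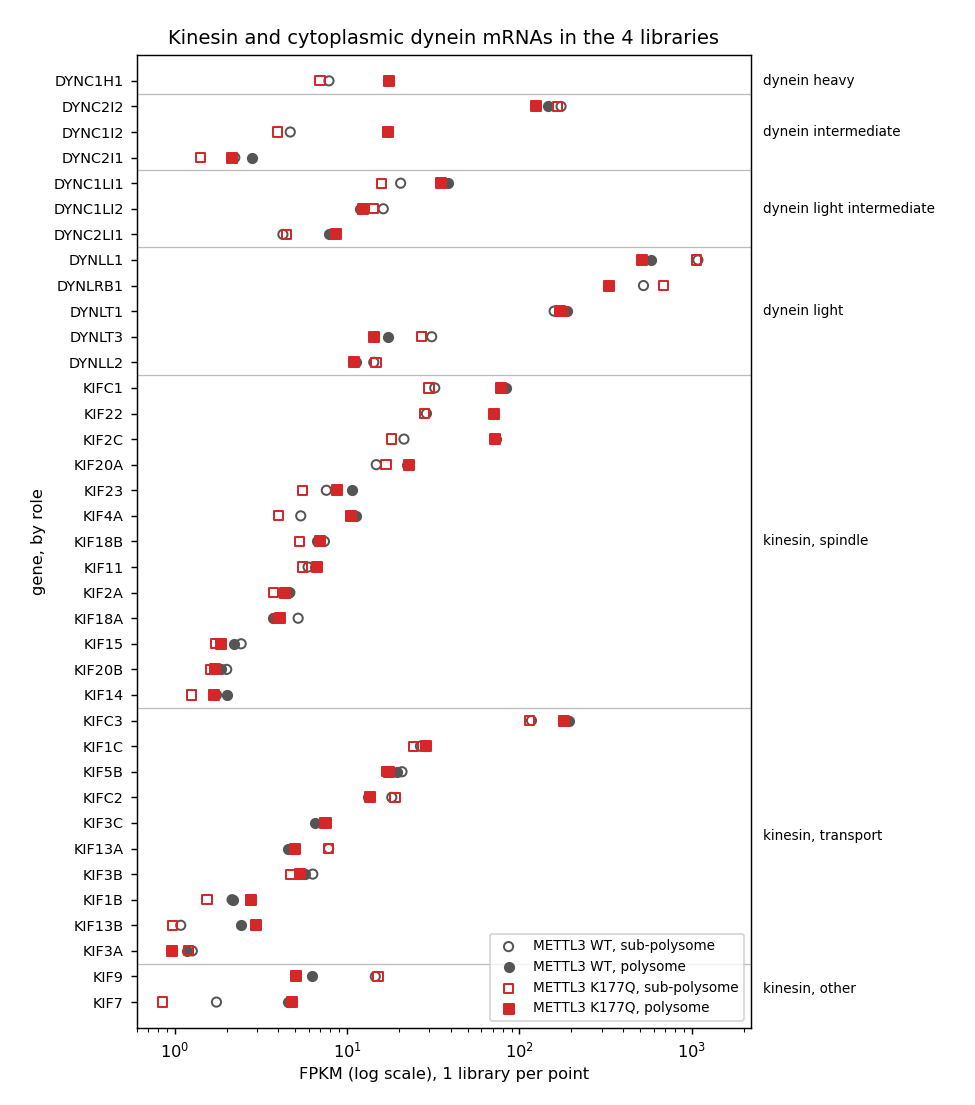
FPKM (log axis) of the 37 motor genes that passed the minimum, 1 row per gene ordered by role; each point is 1 library, open for sub-polysome and filled for polysome, grey circles for METTL3 WT and red squares for METTL3 K177Q. The light chains DYNLL1, DYNLRB1 and DYNLT3 lie higher in sub-polysomes, whereas DYNC1H1, DYNC1I2, KIF2C, KIF22 and KIFC1 lie higher in polysomes, in both genotypes.

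The larger dynein subunits were compared next. DYNC1H1, the 4646-residue heavy chain that holds the ATPase ring of cytoplasmic dynein 1, had 7.85 FPKM in WT sub-polysomes, 17.4 in WT polysomes, 6.97 in K177Q sub-polysomes and 17.5 in K177Q polysomes. DYNC1I2, the intermediate chain that joins the motor to dynactin, had 4.68, 17.3, 3.95 and 17.4 FPKM. Both were higher in polysomes, by 2.20-fold and 2.50-fold for DYNC1H1 and by 3.64-fold and 4.32-fold for DYNC1I2 in WT and K177Q cells. In WT cells, 99.3% of mRNA genes had a polysome to sub-polysome ratio no higher than that of DYNC1I2. DYNC1I1, the other intermediate chain gene of dynein 1, was under 0.5 FPKM in every library.

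The light intermediate chains tie the heavy chain to cargo adaptors, and the members of this class differed. DYNC1LI1 had 20.5 and 38.7 FPKM in WT sub-polysomes and polysomes, and 15.9 and 35.1 in K177Q cells. DYNC1LI2 had 16.2 and 11.8, and 14.2 and 12.4. DYNC1LI1 was therefore higher in polysomes in both genotypes and DYNC1LI2 in sub-polysomes in both, although with TPM DYNC1LI2 was higher in polysomes in K177Q cells (log2 0.24). An opposite-strand annotated gene shares 1094 exonic bases with DYNC1LI2; the libraries were strand-directional, but whether the counting used strand is not given in the sources used here.

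Cytoplasmic dynein 2 carries cargo along the cilium back to the cell body. Its heavy chain DYNC2H1 was at 0.0772 to 0.183 FPKM and did not reach the minimum. Its intermediate chain DYNC2I1 had 2.23 and 2.81 FPKM in WT sub-polysomes and polysomes, and 1.41 and 2.14 in K177Q cells. The other intermediate chain, DYNC2I2, had 174 and 146, and 167 and 124 FPKM. The light intermediate chain DYNC2LI1 had 4.24 and 7.88, and 4.46 and 8.63 FPKM. The mRNAs of this complex thus did not share a level, and DYNC2I2 was higher in sub-polysomes where the others were higher in polysomes, except with TPM in K177Q cells, where its log2 ratio was 0.01. Of the 13 axonemal heavy chain genes of motile cilia, only DNAH14 (9.66 to 16.5 FPKM) reached the minimum.

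Among kinesins of the spindle and of cytokinesis, 13 of 15 reached the minimum, and KIF2B and KIF4B did not. KIFC1, a minus-end motor that gathers spindle poles, had 32.3 FPKM in WT sub-polysomes, 83.1 in WT polysomes, 29.9 in K177Q sub-polysomes and 77.9 in K177Q polysomes. KIF22, a chromosome-binding kinesin, had 28.9, 70.0, 28.2 and 70.8. KIF2C, which depolymerizes microtubules at the kinetochore, had 21.4, 73.1, 18.1 and 72.1. These 3 most abundant spindle kinesins were each more than 2-fold higher in polysomes in both genotypes, KIF2C by 3.41-fold in WT and 3.97-fold in K177Q cells. KIF4A, a chromosome and midzone kinesin, was likewise higher, at 5.39 and 11.3 FPKM in WT and 4.02 and 10.5 in K177Q cells.

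The other mitotic kinesins lay on either side of an even split in WT cells. KIF11, which pushes spindle poles apart, had 5.94 and 6.50 FPKM in WT sub-polysomes and polysomes, and 5.49 and 6.70 in K177Q cells. KIF18A, which dampens chromosome movement at metaphase, had 5.20 and 3.71, and 3.89 and 4.06. KIF18B, which acts on the plus ends of astral microtubules, had 7.39 and 6.73, and 5.28 and 6.95. KIF18A and KIF18B were thus lower in polysomes in WT cells and higher in K177Q cells, but with TPM KIF18B was even in WT cells (log2 0.0018) and with size factors KIF18A was lower in K177Q cells too (log2 -0.12). KIF20A and KIF23, motors of the central spindle in cytokinesis, were higher in polysomes in both genotypes. KIF20A had 14.8 and 22.3 FPKM, and 16.8 and 22.9, and KIF23 had 7.58 and 10.7, and 5.49 and 8.72. KIF14, KIF15, KIF20B and KIF2A were low, at 1.25 to 4.66 FPKM over all libraries. KIF2A shares 1906 exonic bases with DIMT1 on the opposite strand, and reads of the pair cannot be told apart if strand was not used in the counting.

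Among kinesins of organelle and vesicle transport, 10 of 15 reached the minimum. KIFC3, a minus-end motor linked to cell junctions and the Golgi, had 118 FPKM in WT sub-polysomes, 194 in WT polysomes, 115 in K177Q sub-polysomes and 180 in K177Q polysomes, the highest level of any kinesin. KIF1C, which carries vesicles, had 26.6 and 28.5 FPKM in WT and 24.2 and 28.8 in K177Q cells. KIF5B, the ubiquitous heavy chain of conventional kinesin, had 20.8 and 19.4 FPKM in WT and 16.9 and 17.5 in K177Q cells. KIF1C and KIF5B were split nearly evenly, and KIFC3 was higher in polysomes by 1.65-fold and 1.57-fold. KIFC2, a minus-end motor known from neurons, had 18.2 and 13.3 FPKM in WT and 19.0 and 13.5 in K177Q cells, and was lower in polysomes in both, and it shares 791 exonic bases with FOXH1 on the opposite strand. The neuronal forms KIF5A and KIF1A were listed at 0 in every library, KIF5C was at or under 0.0323 FPKM, and KIF17 was at 0.172 to 0.452 FPKM.

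The paralogues KIF13A and KIF13B, which carry membrane cargo, were on opposite sides. KIF13A had 7.82 and 4.52 FPKM in WT sub-polysomes and polysomes, and 7.80 and 4.96 in K177Q cells. KIF13B had 1.08 and 2.41, and 0.966 and 2.96. The proteins are of like length, 1805 and 1826 residues. In heterotrimeric kinesin-2, KIF3A had 1.26 and 1.17 FPKM in WT and 1.20 and 0.961 in K177Q cells, and its partner KIF3B had 6.33 and 5.68, and 4.69 and 5.31. The alternative partner KIF3C, which the study lists among genes with reduced transcripts and decreased m6A peaks, had 7.41 and 6.48 FPKM in WT and 7.63 and 7.48 in K177Q cells. That list rests on RNA-seq and m6A profiling of RNA from whole cells, so these levels in gradient fractions do not test it. KIF3A had the lowest mean of the 37 genes, 1.15 FPKM, and KIF16B, at 0.849, was the next below the minimum.

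Of 12 kinesins of the cilium, of signalling or of less known function, KIF9 and KIF7 alone reached the minimum. KIF9, found in motile cilia and flagella, had 14.6 FPKM in WT sub-polysomes, 6.26 in WT polysomes, 15.1 in K177Q sub-polysomes and 5.08 in K177Q polysomes. It was the most sub-polysomal motor gene, 2.31-fold lower in polysomes in WT and 2.94-fold lower in K177Q cells. KIF7, which regulates Hedgehog signalling at the ciliary tip, had 1.75, 4.51, 0.848 and 4.79 FPKM. It was 2.50-fold and 5.16-fold higher in polysomes. KIF9-AS1, which shares 569 exonic bases with KIF9 on the opposite strand, was at 0.0890 to 0.141 FPKM. KIF6, KIF12, KIF19, KIF21A, KIF21B, KIF24, KIF25, KIF26A, KIF26B and KIF27 were all under 1 FPKM in every library.

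Taking the polysome to sub-polysome ratio as translation efficiency (TE, with 0.1 FPKM added to each value), 12 of 37 motor genes were at least 1.5-fold higher in polysomes in WT cells, against 29.4% of all mRNA genes. At least 1.5-fold lower were 5 (DYNLL1, DYNLRB1, DYNLT3, KIF13A and KIF9), against 16.0%. In K177Q cells 13 were higher, against 31.5%, and the same 5 were lower, against 18.1%. The shares of the motor genes, 32.4% and 13.5% in WT and 35.1% and 13.5% in K177Q cells, were near those of all mRNAs. The counts depend on the scaling. With TPM, 13 were higher and 4 lower in WT and 21 higher and 3 lower in K177Q cells. There the median of all mRNA genes in K177Q cells, log2 0.64, was itself above 1.5-fold, so most of them were higher too. With median-of-ratios size factors the counts were 10 and 8, and 11 and 8. The medians of all mRNA genes were then 0.04 in WT and 0.03 in K177Q cells. The motor genes differed widely among themselves: TE (log2) ranged from -1.21 to 1.87 in WT and from -1.56 to 2.37 in K177Q cells, with an SD across genes of 0.77 and 0.91, against 0.78 and 0.88 for all mRNA genes. The order of the 37 genes was alike in the 2 genotypes (Pearson r = 0.954, Spearman rho = 0.938 across genes, each from its own pair of libraries).

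The comparison of long motor chains with short light chains divided this range. The median TE (log2) of the 26 long chains was 0.06 in WT cells (quartiles -0.13 and 0.97) and 0.34 in K177Q cells (0.07 and 1.19). The 5 short chains had medians of -0.66 (-0.83 and -0.34) and -0.90 (-1.04 and -0.42). All mRNA genes had medians of 0.18 and 0.21. The long chains were therefore above the short chains by 0.72 in WT and 1.24 in K177Q cells, as differences of medians. The classes overlapped: DYNLT1, at 0.24 in WT cells, was above the median of the long chains there, and KIF9 was below every light chain in both genotypes.

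Protein length went with TE across all mRNAs too. The 1485 mRNA genes that code for 1 to 200 residues had a median TE (log2) of -0.30 in WT and -0.55 in K177Q cells, and the 200 genes over 2000 residues had 0.66 and 0.93. Of the light chains, DYNLT1 and, in K177Q cells, DYNLL2 were above the median of their length range. DYNC1H1, at 1.14 and 1.32, was above that of its own. The 18 motor genes of 501 to 1000 residues had lower medians than all mRNA genes of that range. These were -0.07 against 0.27 in WT and 0.31 against 0.41 in K177Q cells. The 11 of 1001 to 2000 residues were lower too, with 0.13 against 0.33 and 0.41 against 0.57. Across the 37 motor genes, Pearson r of TE with log10 length was 0.32 in WT and 0.446 in K177Q cells (rho 0.22 and 0.343), but across the 25 kinesins alone it was -0.09 and 0.079 (rho -0.065 and 0.067). These correlations are across genes that share the same libraries. For the motor genes the relation thus lay between the light chains and the rest, not among the kinesins.

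**Figure D2:**
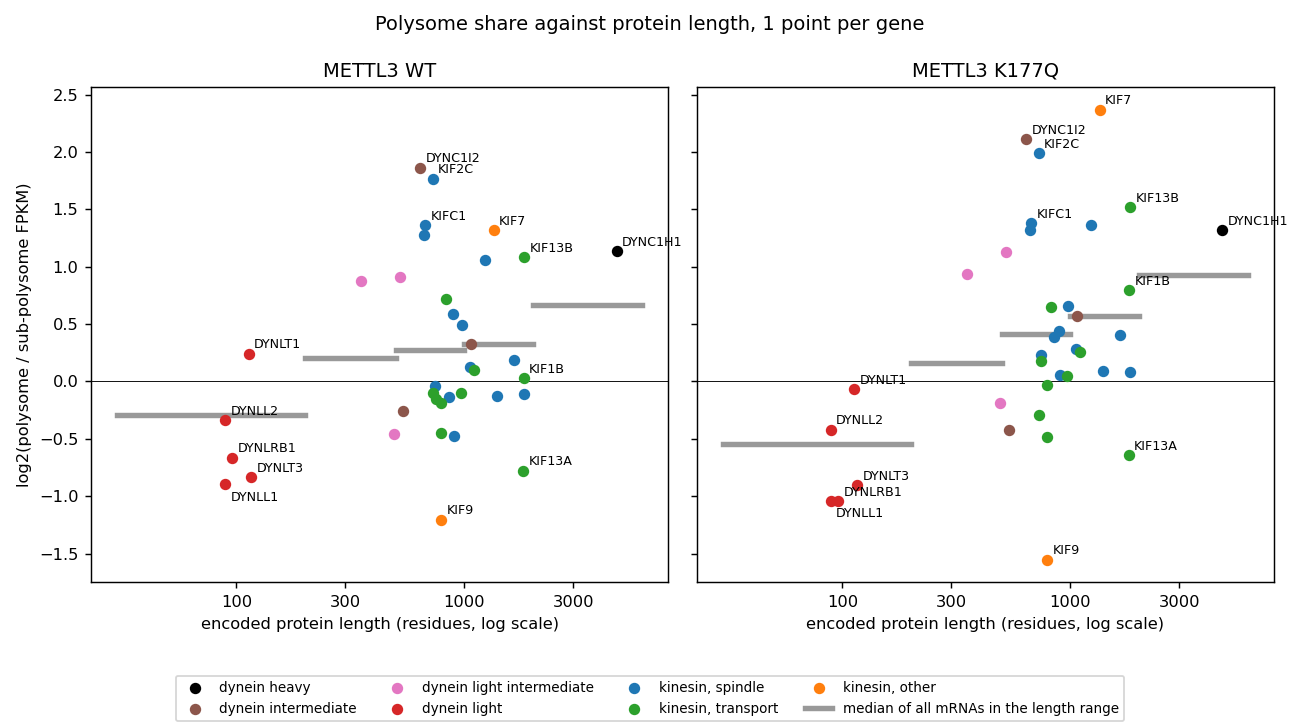
TE, the log2 ratio of polysome to sub-polysome FPKM, against encoded protein length in residues (log axis) in METTL3 WT (left) and METTL3 K177Q cells (right), 1 point per gene coloured by role, with grey bars for the median of all mRNA genes in 5 length ranges. The 5 light chains sit at 89 to 116 residues and at or below 0.24, and the kinesins spread from -1.21 to 1.77 in WT cells with no order by length.

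The bases around the start codon are shown for the genes at both ends of TE, because translation starts there. Each line gives 24 bases of the GENCODE 44 canonical mRNA on hg38, 12 before the ATG to 9 after it. Capitals mark the ATG, the base 3 positions before it and the base that follows it, where a purine and a G are the common choices. Among the highest in TE in both genotypes were:
DYNC1I2: caggtcacaAacATGTcagacaaa
KIF2C: ctgactctcCgaATGGccatggac
KIFC1: accgaggtgGacATGGatccgcag
KIF7: tcctccctcGgcATGGggctggag
DYNC1H1: gagcgcgacAccATGTcggagccc
The lowest in TE in both genotypes were:
KIF9: gtgaacgctAgaATGGgtactagg
DYNLL1: tccacggtaAccATGTgcgaccga
DYNLRB1: gatcggtcgGaaATGGcagaggtg
DYNLT3: gccggcgctAccATGGaggagtac
KIF13A: agcgcagccAacATGTcggatacc

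All 10 windows hold the purine, the G or both. KIF2C, among the highest, lacks the purine, whereas KIF9, DYNLRB1 and DYNLT3, among the lowest, have both a purine and a G. Of 36 motor genes with at least 12 bases of leader, 33 had the purine (91.7%, against 87.6% of 10103 mRNA genes) and 21 had the G (58.3% against 54.2%). KIF22 has an annotated leader of 9 bases and was left out of this count.

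An ATG upstream of the start codon was present in the annotated leader of 14 of the 36 (38.9%), against 38.2% of all mRNA genes. KIF9 and KIF3C each hold 5, KIF14 holds 4 and KIF5B 3. The 12 kinesins with such an ATG had a median TE (log2) of -0.07 in WT cells, with a range of -1.21 to 1.32, and the 12 without had 0.36, with a range of -0.45 to 1.77. In K177Q cells the medians were 0.20 and 0.42. All mRNA genes with an upstream ATG had medians of -0.02 and 0.03, against 0.32 and 0.31 without. The 2 kinesin ranges overlapped widely, and KIF7, with 1 upstream ATG, was the highest of the first. The leader used in these cells was not measured, and a match in the annotated leader is a description only.

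The genotypes were then compared by the TE ratio, the TE of K177Q over that of WT cells. At least 1.5-fold higher in K177Q cells were 2 of 37 motor genes, KIF7 and KIF1B, against 3.73% of all mRNA genes, and 0 were at least 1.5-fold lower, against 5.59%. With TPM these were 7 of 37, against 18.5%, and 0, against 1.76%. The shares among all mRNA genes differ by length. As deposited, 9.53% were higher and 1.25% lower at 1001 to 2000 residues, the range of KIF7 (1343) and KIF1B (1816). At 501 to 1000 residues these shares were 4.54% and 2.26%. For KIF7 the TE ratio was 2.07-fold (log2 1.05, approximate counting SE 0.20). Its sub-polysome value was lower in K177Q cells (0.848 against 1.75 FPKM, near 93.6 and 210 fragments), and its polysome values were alike (4.79 and 4.51). KIF1B, a kinesin-3 that carries synaptic vesicle precursors and mitochondria, had 2.15 FPKM in WT sub-polysomes, 2.19 in WT polysomes, 1.54 in K177Q sub-polysomes and 2.75 in K177Q polysomes. Its TE ratio was 1.71-fold (log2 0.77, counting SE 0.12), with a lower sub-polysome and a higher polysome value.

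KIF1B and KIF26B are on the study's list of genes with raised TE. That list was chosen on polysome profiling of these cells, so the value of KIF1B is not independent evidence of its direction. KIF26B had 0.0602 and 0.0735 FPKM in WT and 0.0480 and 0.0776 in K177Q cells, too low for a TE here. KIF7 lies on the minus strand at chr15:89608789-89663086 and shares 47 exonic bases with TICRR on the opposite strand, and KIF1B lies on the plus strand at chr1:10210570-10381603.

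Below the 1.5-fold line, KIF18A (log2 0.54, counting SE 0.15), KIF18B (0.52, SE 0.11) and KIF13B (0.44, SE 0.16) had the next highest TE ratios. At the other end were DYNLRB1 (-0.38, SE 0.03), KIF9 (-0.35, SE 0.11) and DYNLT1 (-0.31, SE 0.05). Long chains and short chains lay on different sides of 0, with medians of 0.17 and -0.15 and a difference of 0.32. Above 0 were 21 of 26 long chains, and below 0 were 5 of 5 light chains. This sign depends on the scaling: with TPM, the median of all mRNA genes moved from -0.0016 to 0.29, that of the light chains to 0.15 with 2 of 5 below 0, and that of the long chains to 0.47. Relative to all mRNAs, the light chains were lower and the long chains higher. TPM adds nearly the same log2 value to every gene, so it could hardly change this order and is no check on it.

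In this measure the median of the light chains was no lower than that of other short mRNAs. Genes of 1 to 200 residues had a median TE ratio (log2) of -0.27, below the -0.15 of the light chains, and those of 1001 to 2000 residues had 0.24, near the 0.22 of 11 motor genes in that range. Across the 37 motor genes, Pearson r of the TE ratio with log10 length was 0.549 (rho 0.519), against 0.40 (rho 0.461) across 10291 mRNA genes, and across the 25 kinesins it was 0.449 (rho 0.413).

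By fraction, 0 motor genes passed 1.5-fold upward in K177Q polysomes, against 1.81% of all mRNA genes, and 0 passed it downward, against 2.02%. In sub-polysomes 0 were higher, against 3.48%, and 2 were lower, DYNC2I1 and KIF7, against 2.70%. For DYNC2I1 the polysome value was lower as well (2.14 against 2.81 FPKM), which gave a TE ratio (log2) of 0.25 with a counting SE of 0.21. For spindle kinesins, the sub-polysome value was lower in K177Q cells for 12 of 13, with a median log2 ratio of -0.31, while all mRNA genes had -0.01. KIF20A was the exception at 0.19, and with TPM 13 of 13 were lower, with a median of -0.52 against -0.21 for all mRNA genes. This was not particular to them. As deposited, 8 of 10 transport kinesins (median -0.11) and 11 of 13 dynein regulators and cargo adaptors (median -0.26) were lower in sub-polysomes too. In polysomes 8 of 13 spindle kinesins were lower, with a median of -0.05, but with TPM 5 of 13 were, with a median of 0.04. The difference was thus larger in sub-polysomes than in polysomes, and its cause was not tested. These bulk samples do not separate the share of cells in mitosis from the RNA per cell. The TE ratio of the spindle kinesins was above 0 for 12 of 13, with a median of 0.22, and 0 of them passed 1.5-fold in either direction, against 3.73% higher and 5.59% lower among all mRNA genes. With TPM it was above 0 for 13, and 3 passed 1.5-fold upward (KIF4A, KIF18A and KIF18B), against 18.5%. With size factors it was above 0 for 11 and 0 passed. As deposited, all mRNA genes of 501 to 1000 residues had a median TE ratio (log2) of 0.11, and those of 1001 to 2000 residues had 0.24. All 13 spindle kinesins fall in these length ranges.

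**Figure D3:**
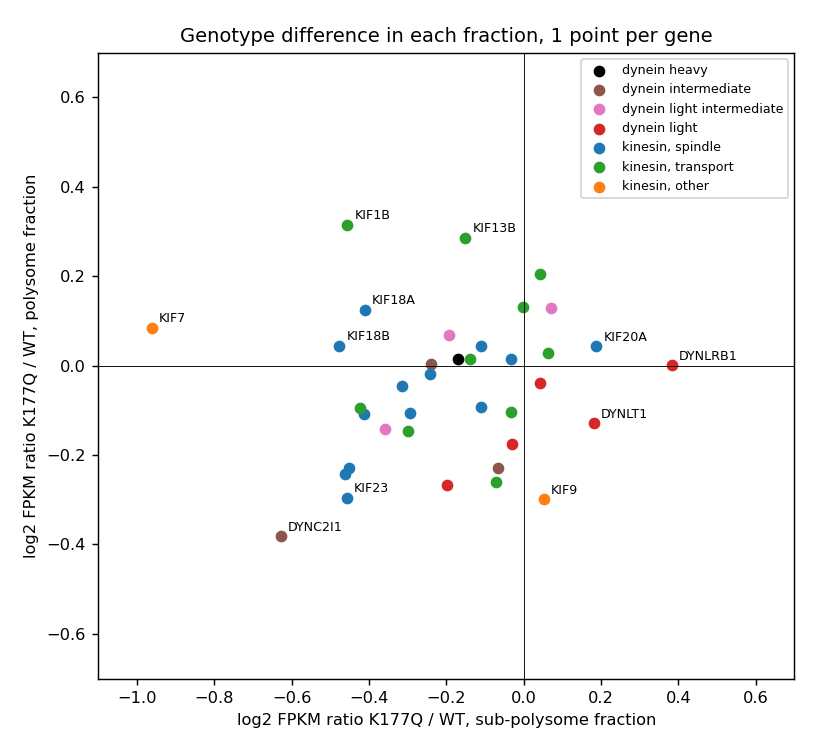
Log2 ratio of FPKM in K177Q over WT cells in the sub-polysome fraction (horizontal axis) and the polysome fraction (vertical axis), 1 point per motor gene, coloured by role. Left of 0 lie 29 of 37 points, against 5300 of 10383 mRNA genes. With TPM 36 do, where the median of all mRNA genes is itself -0.21. The vertical spread stays between -0.38 and 0.32. KIF7 (-0.96) is the leftmost and DYNLRB1 (0.38) the rightmost.

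Transport kinesins had a median TE ratio (log2) of 0.15, with 7 of 10 above 0. KIF5B was at 0.15, KIF1C at 0.16 and KIFC3 at -0.07, the last above 0 with TPM. Of the kinesin-2 subunits, KIF3B was at 0.33 and KIF3C at 0.16, with KIF3A at -0.19 and a counting SE of 0.21, also above 0 with TPM. Among the larger dynein chains, DYNC1H1 was at 0.18, DYNC1I2 at 0.24, DYNC1LI1 at 0.22 and DYNC1LI2 at 0.26. The catalytic and adaptor-binding chains of dynein 1 thus lay between 0.18 and 0.26. DYNC2I2 was at -0.16, or 0.14 with TPM, and DYNC2LI1 at 0.06 with a counting SE of 0.20.

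Genes that work with the motors were read from lists of known partners. All 12 dynactin subunits, the activating complex of dynein, reached the minimum. Their median TE (log2) was 0.46 in WT and 0.52 in K177Q cells, and DCTN1, the subunit that binds microtubules, had the highest TE ratio of the 12 at 0.57. The 7 kinesin light chain and accessory genes, with KLC1 to KLC4 as the cargo-binding partners of KIF5B and with the kinesin CENPE, had medians of 0.92 and 0.94. All 7 were higher in polysomes in both genotypes. Of 10383 mRNA genes, 6201 were higher in WT and 6196 in K177Q cells. The 7 code for 504 to 2701 residues, so they differ in length from the dynein light chains of 89 to 116 residues. The 13 regulators and cargo adaptors of dynein had 0.07 and 0.46, from RILP, an adaptor of late endosomes, at -1.77 to NUDC, a dynein-associated chaperone factor, at 1.44 in WT cells. Over these 32 partner genes, 0 had a TE ratio of at least 1.5-fold in either direction, against 3.73% higher and 5.59% lower among all mRNA genes, and their median was 0.10. With TPM 8 of the 32 were higher and 0 lower, against 18.5% and 1.76%.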

How the data were processed

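Poly(A)-selected RNA of the sub-polysome and polysome fractions of METTL3 WT and METTL3 K177Q reconstituting cells had been sequenced by the authors on an Illumina NovaSeq6000. The deposited values are FPKM per gene. The submitters' processing notes name STAR 2.7, StringTie 2.1.5 and hg38; their settings are not given in the sources used here. The table holds 4 more value columns, named like those used but numbered 1 where these are numbered 2, as a first replicate would be. Their names fit none of the samples given, so they were left out, and no replicate error could be taken from them.

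TE was polysome FPKM over sub-polysome FPKM, each with 0.1 added, on the log2 scale, and the TE ratio was K177Q minus WT. The scale understates differences of low genes. A minimum of 1 FPKM, as the mean of the 4 libraries, was set. Counts were made at 1.5-fold, the study's threshold. With 1 library per condition no test was made. The motor genes, lists and comparisons were chosen with earlier results of these data known. By rule, all kept motor genes could be named; full values were given for the dynein chains, the 3 most abundant kinesins of each role, those past 1.5-fold in the TE ratio and the motor genes that the study lists. Other kinesins with full values, and the partner genes named, were chosen after their values were seen.

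Lengths and sequences came from GENCODE 44 canonical transcripts on hg38, matched by symbol for 57 of 57 motor genes and 99.1% of kept mRNA genes; the authors' annotation may differ. The file gives no counts. In genes with 1 annotated transcript of over 600 bases, FPKM times length in kilobases between 0.03 and 0.05 was taken as 1 fragment, limits chosen after looking at the values. The depth from it is approximate, and its SE covers counting error only. The calculation was tested on simulated data. Alternatives were pseudocounts of 0.01 and 1, no filter or a mean of 5 FPKM, rescaling to the same total (TPM), median-of-ratios size factors, a 2-fold threshold, and chain classes by length. Python 3.11.15, pandas 2.3.3, numpy 2.4.6, scipy 1.17.1 and matplotlib 3.10.9 were used.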

Additional observations from a re-analysis of the deposited data

Results flagged for a closer look

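KIF7 and KIF1B stood out because their TE ratio was at least 1.5-fold and the genotype differences of their 2 fractions had opposite signs. For KIF7 this rests on sign alone, as its polysome values were nearly alike. A lower sub-polysome and a higher polysome value in K177Q cells was by itself not particular to them, with 12 of 37 motor genes. The share among all mRNA genes was not computed. The count depends on the scaling. With size factors DYNC1I2 was lower in polysomes and KIF13A higher in sub-polysomes, and with TPM further genes such as KIF2C had the pattern. For KIF7 the log2 TE ratio was 1.05: FPKM in K177Q cells was lower in sub-polysomes (log2 ratio -0.96) and slightly higher in polysomes (0.09). For KIF1B it was 0.77, with -0.46 in sub-polysomes and 0.32 in polysomes. Each rests on 1 library per condition, and the difference was not tested.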

How the results depend on the processing

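No paired analysis was possible because each condition has 1 library and no test was made. With a pseudocount of 1, the 2 genes at least 1.5-fold higher in TE in K177Q cells became 1 (KIF7), against 1.21% of mRNA genes. They became 0 with a mean of at least 5 FPKM (neither gene reaches it), against 1.17%, and 1 at 2-fold (KIF7), against 0.50%. Without a filter there were 7 of 57 (with KIF6, KIF12, KIF21B, KIF24 and KIF25), against 6.75%. With TPM there were 7 of 37 (with KIF3B, KIF4A, KIF13B, KIF18A and KIF18B), where 18.5% of all mRNA genes passed. Without a filter, 1 gene was lower (DYNLRB2, which has a value above 0 in 1 library), against 7.40%. The difference between long and short chains was 0.51 in WT cells without a filter, against 0.72, and 1.12 in K177Q cells with a pseudocount of 1, against 1.24. Every other alternative left the differences of medians within 0.1. For TPM and size factors this was fixed in advance, as a scaling of whole libraries nearly cancels in such a difference. Of 212 TE ratios of single genes under the alternatives, 41 moved by at least 0.1, 37 of them with TPM, and 9 changed sign. The 212 include 37 values without a filter and 27 at a mean of 5 FPKM. These could not move, because a filter only selects genes. By approximate counting error the TE ratios of KIF3A (SE 0.21), DYNC2I1 (0.21), DYNC2LI1 (0.20) and KIF7 (0.20) were the least precise, and the lowest single value was near 93.6 fragments, for KIF7 in K177Q sub-polysomes.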

Other observations

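Among genes under the minimum, TCTEX1D4, an older symbol of a Tctex-type dynein light chain gene outside the naming rule, had 0.795 and 0.724 FPKM in WT sub-polysomes and polysomes and 1.42 and 0.0929 in K177Q cells. KIF25 had 0.959 and 0.258 FPKM in WT and 0.256 and 0.201 in K177Q cells. These low values have no replicate.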
